A study of Mus musculus with 2 samples.

Results

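The 10 genes described here (Zfp990, Zfp600, Zfp979, Zfp980, Zfp981, Zfp982, Zfp985, Zfp987, Zfp988 and Zfp989) are C2H2 zinc finger genes that lie together on mouse chromosome 4. They were taken by name, 10 of the 32285 genes in both count matrices, and read in barcodes that had 500 or more genes detected and a mitochondrial UMI share of 10% or less. A UMI (unique molecular identifier) marks 1 captured transcript. The list was selected on the UMI sums of these genes in the 2 genotypes, with Zfp990 in the lead, so the values of that contrast are given as a description and not as a test. The series compared group 2 innate lymphoid cells (ILC2s, tissue-resident lymphocytes that secrete IL-5 and IL-13) from lungs of WT mice and of Pac1-/- mice, which lack the phosphatase PAC1, the product of Dusp2, in all cells. The mice were age-matched young adults, not given any stimulus that the labels name, and the Pac1-/- line was on a C57BL/6J background, while the sources used here give no origin for the WT animals. Lineage-negative CD90.2+ ST2+ Sca-1+ cells were sorted, pooled over several mice of a genotype and run as 1 droplet 3′ library per genotype. With 1 library each, no test between genotypes was possible, and every interval below is a 95% interval that covers counting error only.

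C2H2 zinc finger proteins bind DNA through tandem fingers, and in rodents the genes of large clusters mostly also encode a KRAB domain, which recruits the corepressor Trim28 (KAP1). Trim28 in turn brings in the histone methyltransferase Setdb1 and heterochromatin proteins, and the best known targets of this family are retrotransposons. Such clusters grow by duplication, so neighbouring genes can be near-copies of each other, and their copy number is known to differ between inbred mouse strains. Reads from a stretch that copies have in common cannot be assigned to 1 of them.

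The filter left 8394 WT and 7087 Pac1-/- barcodes with 54579034 and 58338886 UMIs, at a median of 4186.5 and 5577 UMIs per barcode. A UMI of Gata3 or Il1rl1 (ST2), the defining genes of the sorted cell, was present in 97.6% of barcodes in either library. Dusp2 gave 1419 UMIs in WT and 5 in Pac1-/-, the direction of the labels. The libraries had 29 barcode sequences in common, 15 of which passed in both. Summed markers of B cells were 6.30 UMIs per 1000000 UMIs (CPM) in WT and 11.4 in Pac1-/-, those of T cells 142 and 104.8, of erythroid cells 70.1 and 246, and of mast cells 440 and 236, and their part in the values below was not tested beyond the splits given. Of the 3 mast cell markers, 1 was at 0 in WT, and sums over a marker list are not read as numbers of cells.

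On the GRCm38 annotation, the first gene of the list was Zfp990 (ENSMUSG00000078503, chr4:145510759-145539188, plus strand). It was followed by Zfp980 (chr4:145670685-145704441), Zfp987 (chr4:146097298-146126621), Zfp600 (chr4:146156824-146198755), Zfp981 (chr4:146502027-146539395), Zfp989 (chr4:146971976-146990755), Zfp988 (chr4:147305674-147333734), Zfp982 (chr4:147492417-147513486) and Zfp985 (chr4:147553277-147585198). Zfp979, at chr4:147611937-147642513, was the only one of the 10 on the minus strand. Their annotated proteins ran from 368 residues with 7 fingers (Zfp982) to 737 residues with 17 fingers (Zfp600), and Zfp979 had the fewest fingers, 3. Zfp990 encoded 605 residues with 13 fingers. Coding sequences of the 45 pairs were 43.8% to 95.05% identical with a median of 67.0%. The closest pair was Zfp987 and Zfp988, and the gene closest to Zfp990 was Zfp988 at 88.9%.

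How near these copies are can be read from the last 91 bases of their coding sequences, which end in the stop codon and code for the end of the protein. Zfp534, a neighbouring zinc finger gene outside the list, is printed first, and capitals in the others mark bases that differ from it.
Zfp534: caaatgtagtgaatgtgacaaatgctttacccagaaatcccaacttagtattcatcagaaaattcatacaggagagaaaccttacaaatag
Zfp987: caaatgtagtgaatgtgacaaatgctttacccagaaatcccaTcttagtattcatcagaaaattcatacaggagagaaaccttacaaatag
Zfp989: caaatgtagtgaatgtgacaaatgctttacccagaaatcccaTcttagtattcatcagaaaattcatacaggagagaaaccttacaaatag
Zfp990: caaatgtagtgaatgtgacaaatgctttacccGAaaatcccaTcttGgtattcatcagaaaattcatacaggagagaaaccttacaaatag
Zfp985: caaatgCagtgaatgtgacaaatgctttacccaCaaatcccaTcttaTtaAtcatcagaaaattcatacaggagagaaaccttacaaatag
Zfp988: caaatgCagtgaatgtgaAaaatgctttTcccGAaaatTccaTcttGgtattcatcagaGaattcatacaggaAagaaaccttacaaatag
Zfp987 and Zfp989 were identical over this stretch, and each differed from Zfp534 at 1 base. Zfp990 differed at 4 bases, Zfp985 at 5 and Zfp988 at 10. A read inside this stretch would thus carry a single base, or none, that separates Zfp987, Zfp989 and Zfp534 from each other. After the stop codon, the annotated untranslated 3′ end ran for 720 bases in Zfp987, 937 in Zfp990, 962 in Zfp985, 722 in Zfp988 and 0 in Zfp989. Of the listed genes shown, only Zfp989 thus has this stretch in the last 500 transcript bases, which are compared further on.

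Zfp990 was near absent from the WT library and abundant in the Pac1-/- library. It gave 1 UMI among all WT barcodes, or 0.0183 CPM (0.000464 to 0.102), and 3600 UMIs in Pac1-/-, or 61.7 CPM (59.7 to 63.8). The 2 intervals lay far apart. The log2 ratio was 11.72 (9.24 to 17.02), with the fold uncertain because its denominator was a single molecule, and no other of the 13926 genes with at least 20 UMIs over both libraries had a larger fold. A Zfp990 UMI was found in 1 WT barcode (0.0119%) and in 2254 Pac1-/- barcodes (31.8%). After each barcode was thinned to 2000 UMIs, which left 7480 WT and 6470 Pac1-/- barcodes, the counts were 0 in WT, which allows a share of up to 0.0401%, and 738 in Pac1-/- (11.4%; 10.6% to 12.2%). The barcodes that the filter had removed, 2472 and 2408 in number, held 0 and 157 Zfp990 UMIs, or 80.7 CPM (68.6 to 94.4) in Pac1-/-.

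Zfp982 was the next most counted gene of the list. It gave 28 UMIs in WT (0.513 CPM; 0.341 to 0.741) and 269 in Pac1-/- (4.61 CPM; 4.08 to 5.20), a log2 ratio of 3.17 (2.60 to 3.78). Unlike Zfp990, it was thus present in both libraries. Its UMIs lay in 28 WT and 248 Pac1-/- barcodes, and after thinning in 8 (0.107%; 0.0462% to 0.211%) and 52 (0.804%; 0.601% to 1.05%).

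Zfp985, Zfp988 and Zfp981 were also higher in the Pac1-/- library, from much smaller counts. Zfp985 gave 14 UMIs in WT and 66 in Pac1-/-, 0.257 CPM (0.140 to 0.430) against 1.13 (0.875 to 1.44), and a log2 ratio of 2.14 (1.29 to 3.09). Zfp988 gave 5 and 42 UMIs, 0.0916 CPM (0.0297 to 0.214) against 0.720 (0.519 to 0.973), and a log2 ratio of 2.97 (1.64 to 4.67). For Zfp981, the counts were 4 and 18 UMIs, and the intervals of its levels, 0.0200 to 0.188 CPM in WT and 0.183 to 0.488 in Pac1-/-, overlapped slightly, at a log2 ratio of 2.07 (0.47 to 4.096). Its fold of 4.21 lay just past the 4-fold limit used here, and that of Zfp985, 4.41, was also close to it.

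Zfp987 was the listed gene with the most even counts. It gave 19 UMIs in WT and 23 in Pac1-/-, 0.348 CPM (0.210 to 0.544) and 0.394 CPM (0.250 to 0.592), a log2 ratio of 0.18 (-0.76 to 1.14). The intervals of the levels overlapped over most of their length, but that of the ratio reached past 2-fold in the higher direction, so equal levels were not shown at this depth.

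The other 4 genes fell under the minimum of 20 UMIs over both libraries. Zfp979 had 4 UMIs in WT and 15 in Pac1-/-, Zfp980 0 and 10, Zfp989 0 and 6, and Zfp600 0 and 4. For a sum of 0 in the WT library, the exact Poisson interval reached 0.0676 CPM. All 4 had more UMIs in Pac1-/-, but no fold is given for them at these counts.

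**Figure D1:**
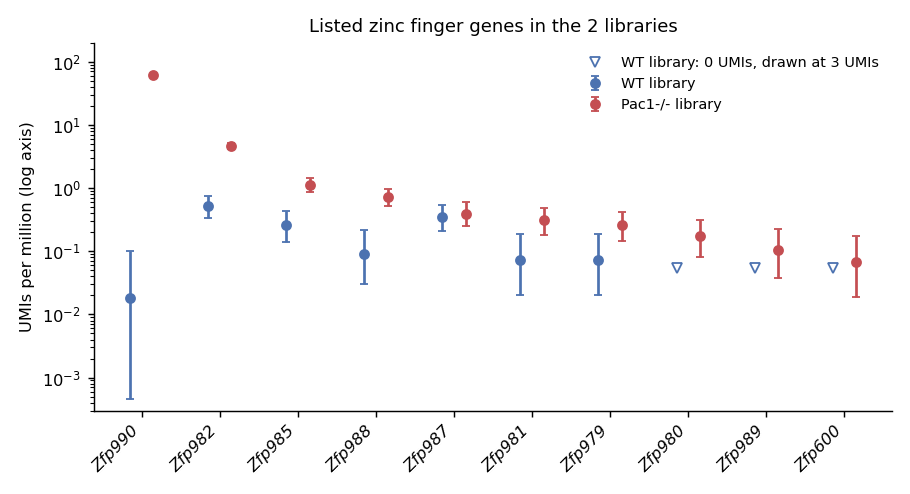
Level of each listed gene in the WT (blue) and Pac1-/- (red) library, in CPM on a log axis. Points are library sums with exact Poisson 95% intervals, and open triangles mark 0 UMIs drawn at the level of 3 UMIs. Zfp990 runs from 0.0183 to 61.7 CPM, while the 2 points of Zfp987, at 0.348 and 0.394 CPM, overlap.

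A gene was counted as apart when its levels differed at least 4-fold and the interval of the ratio excluded equality. By this rule 5 of the 6 listed genes that passed the minimum were higher in Pac1-/-, against 0.797% of all genes tested, and 0 were lower, against 0.625%. No listed gene had its whole interval within 2-fold, against 74.1% of all genes. These shares are shown beside the counts as a description only, since the list was built on this contrast and the genes of the list reached the minimum mainly through their Pac1-/- counts. Genes with few UMIs were past the limit more often, at 3.51% of the 4473 genes with 20 to 400 UMIs, and 33.2% of these had their whole interval within 2-fold. All 10 genes had more UMIs in Pac1-/- than in WT. That was also the more common direction among all genes tested, whose median log2 ratio was 0.18 in a deeper Pac1-/- library. The 9 genes other than Zfp990 together gave 74 and 453 UMIs, a log2 ratio of 2.52 (2.16 to 2.89). Zfp982 supplied most of these UMIs, and the 8 genes without it gave 46 and 184, a log2 ratio of 1.90 (1.43 to 2.40).

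The count of 5 was reached with the scale set by total UMIs. Scaling to the median ratio of all genes tested, 0.18 on the log2 scale, left 3 genes apart (Zfp990, Zfp982 and Zfp988), and the same 3 remained without barcodes above 2 times the median UMI count. Zfp985 and Zfp981 were the genes lost in both cases. Their log2 ratios were 1.96 and 1.89 on the median scale, and 1.79 and 1.38 without the deep barcodes.

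Reads of near-identical copies were considered next, from the annotated transcripts, since the count depends on where a read can be placed. For each gene, the last 500 transcript bases were cut into 410 windows of 91 bases, a read length in common use with this kind of library, and each window was searched in the transcripts of all other genes. The libraries were sequenced with reads of 150 bases, of which the sources used here do not say how much was aligned, and the shares with 150-base windows follow further on. For Zfp990, 10 windows (2.44%) occurred elsewhere, all in Zfp534, and the closest match of this end lay in Zfp985 with 92.4% identity. The end of Zfp990 was therefore almost wholly its own in this annotation. Zfp534 itself gave 0 UMIs in WT and 48 in Pac1-/-, far fewer than Zfp990.

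Zfp982, Zfp985 and Zfp979 had no window in another transcript. The closest match of their ends, anywhere in a transcript of another gene, lay in Zfp987 for Zfp982 (89.2% identity), in Zfp990 for Zfp985 (92.4%) and in Zfp985 for Zfp979 (77.7%). For Zfp982 this was not the end of Zfp987, since the last 500 bases of the 2 genes were 50.3% identical. Of the 5 genes counted as apart, 3 (Zfp990, Zfp982 and Zfp985) thus had under 3% of their end in common with any other annotated gene.

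For the other 2 genes counted as apart, the ends had more in common with other genes. Zfp988 had 15.1% of its windows in other transcripts, and Zfp981 29.5%, among them those of Rex2, a zinc finger gene of the same cluster. Zfp987, the gene with even counts, had 73.2% of its end in common with others and was 98.8% identical to Zfp534 over 500 bases. Of its windows, 277 occurred in Gm8935, a gene of the annotation that is not in the count table. Of genes in the count table, Zfp534 held 169 and Zfp988 59. A read of 91 bases from most of that end would thus match another annotated gene too. How reads that match Zfp987 and only Gm8935 besides were counted was not tested.

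The genes with 0 UMIs in WT were among those with the most duplicated ends. Zfp600 ended in 500 bases identical to those of Rex2, so 100% of its windows were ambiguous. Zfp980, with 40.0% of its windows in other transcripts, was 99.0% identical to Rex2, and Zfp989, with 41.0%, had 168 windows in the transcripts of Zfp987. The annotated transcript of Zfp989 stopped at the stop codon with a 3′ UTR of 0 bases, and that of Zfp982 had 192, so reads beyond the annotated end could not be looked at here. Whether reads were lost to multiple placement, or given to a copy outside the annotation, was not tested, since the reads were not analysed here.

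**Figure D2:**
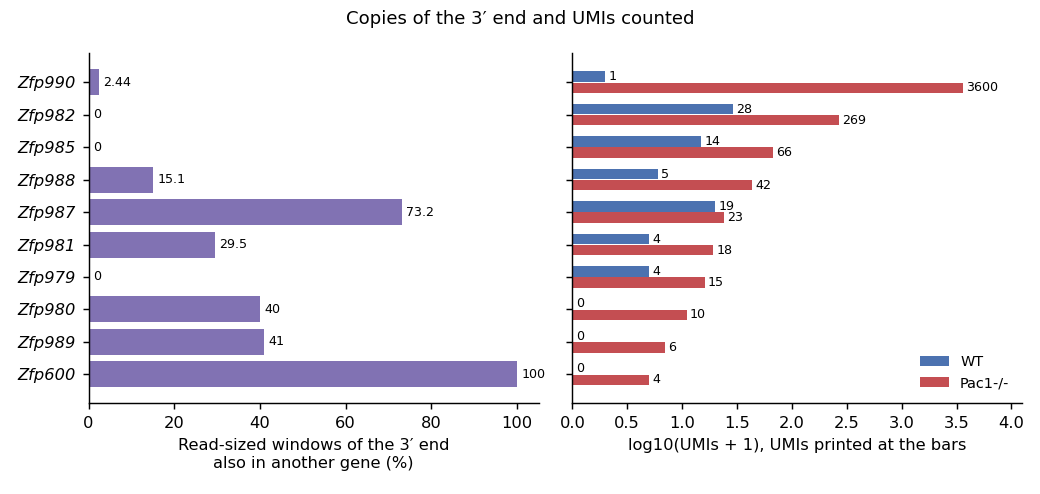
Left, percent of 91-base windows in the last 500 transcript bases that also occur in a transcript of another gene. Right, UMIs of each listed gene in WT (blue) and Pac1-/- (red), as log10(UMIs + 1) with the UMIs printed. Zfp990, Zfp982, Zfp985 and Zfp979 have ends of their own (2.44% or less), and Zfp600, Zfp987, Zfp989 and Zfp980 lie at 40% to 100%.

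The length of the window changed these shares. With 150-base windows, Zfp990, Zfp982, Zfp985, Zfp979 and Zfp988 had 0% of their end in other genes, Zfp981 7.41%, Zfp980 13.1%, Zfp989 25.9%, Zfp987 45.6% and Zfp600 100%. With 75-base windows, Zfp990 had 9.86%, Zfp988 27.9%, Zfp981 36.9% and Zfp987 78.9%. Zfp988 was thus unique at its end only at the longest of these lengths, while Zfp600 was wholly duplicated at each. Annotated genes also overlapped some of the list. Zfp600 and Zfp981 each had an antisense partner in the count table (Gm13165 and 1700095A21Rik), and the sources used here do not say that strand was used in counting. Zfp990, Zfp982, Zfp985 and Zfp987 overlapped no other annotated gene.

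Around their RefSeq starts, copies were also close. Promoter sequences were in the RefSeq table for 8 of the 10 genes (not Zfp990 or Zfp989), with more than 1 start for Zfp600 and Zfp982. With the start nearest to the annotated gene start taken for each gene, the 28 pairs were 61.9% (Zfp981 and Zfp988) to 94.4% (Zfp600 and Zfp979) identical over 300 bases around the start, with a median of 80.0%. The only RefSeq promoter of Zfp981 began at base 146514670, inside the annotated gene, so its pairs, the lowest among them, do not compare sequence before the gene. Pairs that used another start of Zfp600 or Zfp982 were 41.5% to 49.55% identical. Zfp982, higher in Pac1-/-, and Zfp987, with even counts, were 88.7% identical at these starts, and 46.5% and 42.8% at the other 2 starts of Zfp982. The 250 bases before their starts are shown (RefSeq, GRCm38.p6, plus strand, chr4:147492167-147492416 and chr4:146097062-146097311), with capitals for bases that differ from, or have no partner in, the other sequence.
Zfp982: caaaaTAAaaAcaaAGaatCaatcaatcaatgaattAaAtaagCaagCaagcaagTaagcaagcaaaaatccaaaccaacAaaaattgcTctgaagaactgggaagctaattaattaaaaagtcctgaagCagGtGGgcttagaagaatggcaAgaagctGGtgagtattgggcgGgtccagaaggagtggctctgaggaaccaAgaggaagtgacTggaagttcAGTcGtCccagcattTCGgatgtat
Zfp987: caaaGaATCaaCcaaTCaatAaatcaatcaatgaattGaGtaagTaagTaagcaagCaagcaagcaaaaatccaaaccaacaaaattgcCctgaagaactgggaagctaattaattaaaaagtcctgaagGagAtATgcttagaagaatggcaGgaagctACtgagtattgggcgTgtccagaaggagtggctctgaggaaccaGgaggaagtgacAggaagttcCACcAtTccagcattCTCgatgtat
Each sequence held 32 such bases. Which start was used in these cells was not tested.

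Around the listed genes, differences in the same direction were found in other genes of the cluster. In the stretch from 1000000 bases before the first to 1000000 bases after the last listed gene (chr4:144510759-148642513), 40 of the 67 genes in the count table passed the minimum, and 11 were apart, all higher in Pac1-/-. Of the 34 tested genes there that were not on the list, 6 were apart (17.6%), against 1.42% of all genes tested in either direction. These 6 were Dhrs3, Platr16, Gm13166, Gm21411, Rex2 and Zfp534. All but Dhrs3 had under 20 UMIs in WT and so passed the minimum through the library in which they were high, and nothing is read from their share.

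Gm13166, a long noncoding RNA between Zfp600 and Zfp981, gave 2 UMIs in WT and 192 in Pac1-/- (log2 ratio 6.49; 4.62 to 9.54). Gm21411 gave 1 and 49 UMIs (5.52; 2.97 to 10.85). Against a floor of 3 UMIs in the WT library, Zfp534, with 0 and 48 UMIs, was 14.97-fold higher in Pac1-/-, and Rex2, with 0 and 23, 7.17-fold. As WT held no UMI of either, the interval of the log2 ratio had only a lower end, 3.55 for Zfp534 and 2.43 for Rex2. These genes were, like Zfp990, near 0 in WT. Platr16, a noncoding transcript just before Zfp990, gave 11 and 144 UMIs (3.61; 2.73 to 4.65). Dhrs3, which encodes a retinaldehyde reductase, lay before the cluster and was well counted in both libraries, with 336 and 1818 UMIs (2.34; 2.17 to 2.51).

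Not all genes between the listed ones followed. Zfp993, between Zfp981 and Zfp989, was lower in Pac1-/-, with 121 UMIs in WT and 38 in Pac1-/- (log2 ratio -1.77; -2.33 to -1.23). Zfp991, between Zfp989 and Zfp988, gave 183 and 114 UMIs (-0.78; -1.13 to -0.43). Zfp992, next to Zfp981, was within 2-fold, with 460 and 677 UMIs (0.46; 0.29 to 0.64), and Gm13212, the next tested gene after Zfp990, gave 741 and 1666 UMIs (1.07; 0.95 to 1.20). The cluster was therefore a mix of genes near 0 in WT, genes counted in both libraries and genes with more UMIs in WT.

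On either side, genes of unrelated function were in part close to equal and in part not. Vps13d, a lipid transfer protein gene before the cluster, had a log2 ratio of -0.08 (-0.15 to 0.00), and Mfn2, which encodes a mitochondrial fusion protein after it, of -0.10 (-0.22 to 0.03). Tardbp, which encodes an RNA-binding protein, had a ratio of 0.02 (-0.03 to 0.07) near the far end of the stretch. Beyond the cluster, Fbxo44, which encodes a ubiquitin ligase subunit, gave 57 and 22 UMIs (-1.47; -2.25 to -0.74), and Masp2, which encodes a complement protease, 45 and 22 (-1.13; -1.93 to -0.36). Between Vps13d and Zfp990, Tnfrsf1b, the gene of TNF receptor 2, was lower in Pac1-/-, with 2112 and 956 UMIs (-1.24; -1.35 to -1.13).

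**Figure D3:**
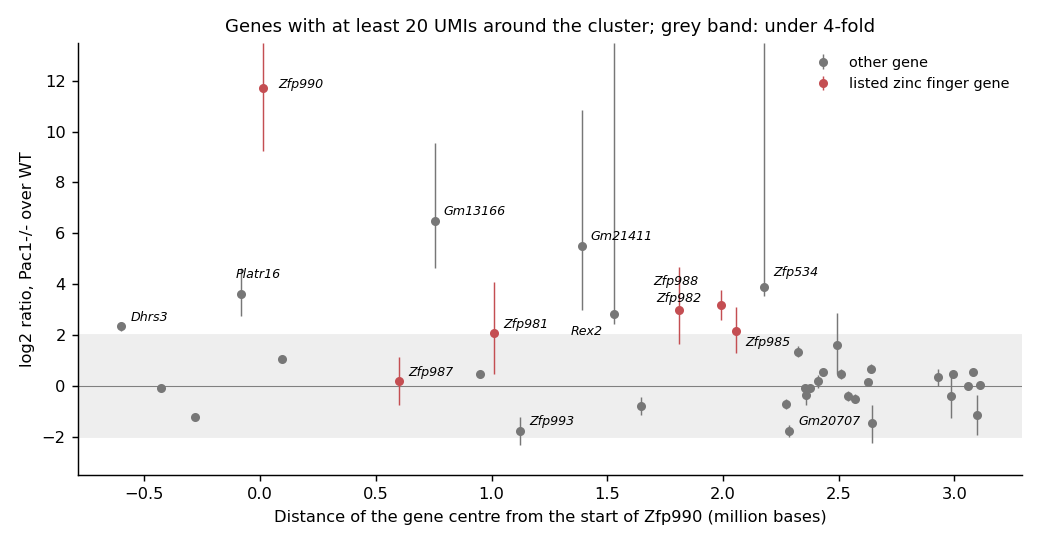
Log2 ratio of Pac1-/- over WT for the 40 tested genes of the stretch, by distance of the gene centre from the start of Zfp990 in megabases. Red points are listed genes and grey points other genes, lines are exact 95% intervals (cut at the top of the plot), genes with 0 UMIs in WT are drawn against 3 UMIs, and the grey band holds ratios under 4-fold. All 11 genes past 4-fold lie above the band, the last of them Zfp534, and Zfp993 and Gm20707 lie near its lower edge.

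The genome was also cut into bins of 5000000 bases. The bin that starts at base 145000001 of chromosome 4 held 10 genes apart of 57 tested (17.5%), all higher in Pac1-/-. Listed genes, selected on this contrast, made up 5 of the 10, and the other 5 all had under 20 UMIs in WT, so the share of this bin is a description from which nothing is read. A bin of chromosome 13 held 6 of 64 (9.4%), among them histone genes, with 3 higher and 3 lower. A bin of chromosome 19 held 6 of 41 (14.6%), among them genes of the Ms4a family, with 5 higher and 1 lower. Around Dusp2 on chromosome 2, within 5000000 bases, 3 of 95 tested genes were apart (3.16%), Dusp2 included, beside 1.42% of all genes tested.

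Zinc finger genes elsewhere, and the genes of proteins that work with this family, were counted by the same rule. Of 329 tested genes outside the stretch whose symbol starts with Zfp, 5 were apart (1.52%, beside 1.42% of all genes tested), with a median log2 ratio of 0.39, beside 0.18 for all genes tested. Of 16 genes for Trim28 and its partners, 0 were apart and 15 had their whole interval within 2-fold, with a median of 0.23. At the shares of all genes, 1.42% and 74.1%, a count of 0 apart in a list of this length says nothing particular about it. Trim28 itself was at 39.2 CPM in WT and 35.8 in Pac1-/-, and Setdb1 at 22.9 and 33.0. Uhrf1, a cofactor of the DNA methyltransferase Dnmt1, was the one with a wider interval, at 51 and 87 UMIs.

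Of genes known to differ between mouse strains, 3 were looked at, too few to read against the 1.42% of all genes. Nnt, part of which is deleted in C57BL/6J, gave 172 UMIs in WT and 258 in Pac1-/- (log2 ratio 0.49; 0.20 to 0.78), and the counts do not show whether these came from an intact gene. Wdfy1 was within 2-fold at 1334 and 1768 UMIs. Ifi202b, low or absent in C57BL/6, was at 0 in both libraries. The genotype, the animals pooled and the library cannot be told apart here, and a difference in strain around the cluster was not tested, since no reads or variants were analysed.

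Within the Pac1-/- library, Zfp990 was counted in barcodes of several kinds. As the removed barcodes of this library, at a median of 596 UMIs, also held it at 80.7 CPM, the part of free RNA in the levels below was not tested, and a level in a kind of barcode is not read as expression there. Barcodes with a Gata3 or Il1rl1 UMI gave 61.7 CPM (59.7 to 63.8), and the 173 without gave 61.8 (37.2 to 96.5). In barcodes with an Il5 or Il13 UMI, the type 2 cytokines, the level was 60.1 CPM (57.6 to 62.6), and in those without it was 64.7 (61.2 to 68.2). The level without was 1.08 times that with a cytokine UMI (1.01 to 1.15), a small difference whose counting interval excluded equality. Barcodes without were shallower (median 4852 against 7515 UMIs), and the interval takes every UMI as independent, which the spread over barcodes given further on does not bear out, so this difference is not read as one between kinds of cell. Barcodes with at least 2 T cell markers gave 65.1 CPM (58.6 to 72.2).

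A lower level was found in a small set of barcodes with at least 2 B cell markers. There, 23 Pac1-/- barcodes held 3 Zfp990 UMIs, 13.2 CPM (2.72 to 38.5), below the interval of the library as a whole. A Zfp990 UMI was present in 8.70% of them at a median of 4652 UMIs per barcode, against 31.8% of all barcodes at a median of 5577. In WT, the single Zfp990 UMI also lay in such a barcode, 1 of 10, with 7 UMIs of Cd79a, 6 of Cd79b and 6 of Ms4a1. The same barcode held 1 UMI of Gata3 and 2 of Il1rl1, so its markers were mixed and its kind of cell was not settled. That barcode sequence was not among those found in both libraries. The number of B cell marker barcodes was too small to say more.

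Depth changed the share of barcodes with a Zfp990 UMI more than its level. With Pac1-/- barcodes split into 4 sets of like size by depth, the share from the shallowest to the deepest set was 16.6%, 22.6%, 28.3% and 59.7%. The levels were 76.3, 56.2, 55.5 and 63.4 CPM in the same order, highest in the shallowest set (68.7 to 84.7). If every barcode had Zfp990 at 1 rate per UMI, 4628 barcodes would lack it, 1712 would hold 1 UMI and 90.4 would hold 4 or more. The counted numbers were 4833, 1435 and 131. More barcodes than 1 rate gives thus lay at both ends, without Zfp990 and with 4 or more UMIs of it. The mice of a pool could not be told apart.

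Zfp982 was compared over the same split. In Pac1-/- it was at 4.26 CPM (3.62 to 4.97) with and 5.25 (4.31 to 6.33) without an Il5 or Il13 UMI (ratio 1.23; 0.957 to 1.58, which included equality), and in WT at 0.454 (0.273 to 0.709) and 0.706 (0.323 to 1.34). The difference between libraries was present on both sides of that split. As the split only divides the UMIs on which the list was selected, nothing is read from this. The part of free RNA was not tested for Zfp982 either. Sex offered no split, as Xist gave 4 UMIs in each library and 66.0% of WT barcodes and 75.6% of those from Pac1-/- mice held a Y-linked UMI.

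**Figure D4:**
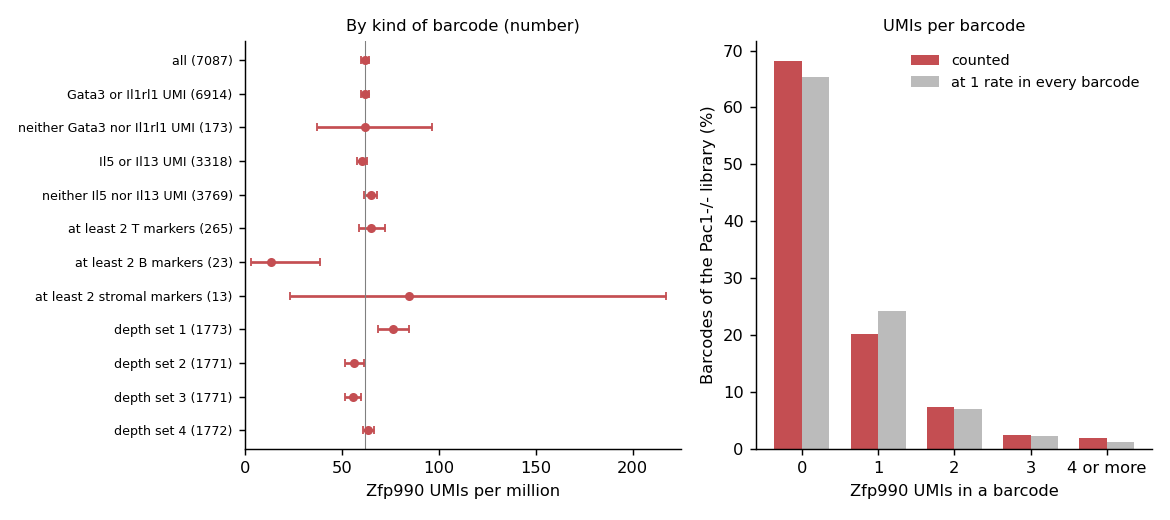
Left, Zfp990 level in kinds of Pac1-/- barcodes (number of barcodes in parentheses), in CPM with exact Poisson 95% intervals, and a vertical line at the level of all barcodes; depth sets run from the shallowest (1) to the deepest (4). Right, percent of barcodes with a given number of Zfp990 UMIs as counted (red) and as given by 1 rate per UMI in every barcode (grey). The barcodes with at least 2 B cell markers, at 13.2 CPM, lie farthest below the line, depth sets 2 and 3, at 56.2 and 55.5 CPM, also lie below it with their whole intervals, and 68.2% of barcodes held no Zfp990 UMI, beside 65.3% at 1 rate.

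Genes found in the same barcodes were compared with the number that depth gives. In Pac1-/-, 108 barcodes held UMIs of both Zfp990 and Zfp982, where 1 rate per UMI for each gene gives 134. For Zfp990 with Zfp985 the numbers were 32 and 34.2, and with Zfp988 19 and 21.9. Zfp990 and Gm13166 were found together in 107 barcodes, where 97.2 are given, and Zfp990 and Zfp534 in 27, where 24.9 are given. With Dhrs3 the joint count was 568, where 711 are given, and with Gm13212 606, where 666 are given. The product of the shares of barcodes, which takes no account of depth, gives 387 for Dhrs3, 405.5 for Gm13212 and 78.9 for Zfp982, below the joint counts. As 1 rate per UMI already gave more barcodes with Zfp990 than were counted, nothing is read from the direction. Zfp987, with 169 of its 410 end windows also in Zfp534, was found in 0 barcodes together with it, where 0.298 are given, too few to compare.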

How the data were processed

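The authors made the deposited UMI counts with Cell Ranger on mm10 from 10x Genomics 3′ v3.1 libraries. The submitters' notes name version 6.1.1 and the file header 4.0.0, and the annotation release was not given in the sources used here. The deposited values are raw UMI counts per gene and barcode with no normalization. Cell Ranger keeps reads placed in 1 gene, so near-identical copies can lose reads.

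UMIs were summed in each library over barcodes that had 500 or more genes detected and a mitochondrial share of 10% or less (8394 WT, 7087 Pac1-/-, more cells than the study kept, with 691 to 70346 and 649 to 81548 UMIs each) and divided by the library's total. No doublet caller was run. Barcodes above 2 times the median UMI count were left out as an alternative. Intervals (95%, scipy 1.17.1) were exact Poisson for levels, conditional binomial for ratios and Clopper-Pearson for shares. The upper limit of a share at 0 was set at 3 barcodes instead. A ratio with a sum of 0 was computed against 3 UMIs. Genes needed 20 UMIs over both libraries. The calculation was tested on simulated data. No count model was fitted, since there was 1 library per genotype.

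Positions, transcripts and proteins came from GENCODE vM21 (GRCm38), matched by identifier for 99.6% of genes, and promoters from RefSeq (GRCm38.p6). Ends were searched by exact match and aligned with blastn 2.17.0 and biopython 1.88. H2-Ea, H2-Ea-ps and Mx1 were not analysed here. Named genes were the 10 listed, tested genes of the chromosome 4 stretch at least 4-fold apart, listed corepressor, strain and sex-linked genes and Dusp2. Other neighbours and the leading genes of bins were named after their values were seen. The genes and lists were chosen with earlier results of these data known.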

Additional observations from a re-analysis of the deposited data

How the results depend on the processing

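Zfp990 and Zfp982 were at least 4-fold higher in Pac1-/- under each of the 9 other choices of barcodes, scale or depth, with log2 ratios of 8.28 to 11.77 and 2.98 to 3.22. The lowest value of Zfp990 came from barcodes thinned to 2000 UMIs, where the WT sum was 0 and was set to 3. The number of listed genes at least 4-fold apart, 5 in the report, was 3 without barcodes above 2 times the median UMI count, 3 when scaled to the median ratio, 2 when thinned to 2000 UMIs, 3 without barcodes that held 2 or more B cell, T cell or stromal markers (a choice made after seeing the data) and 2 with an 8-fold limit. Zfp981 and Zfp985 left the count in all of these, and Zfp988 with the last limit and on thinning. On thinning, all 3 fell under the minimum of 20 UMIs. Zfp981 (1 and 5 UMIs) and Zfp988 (2 and 10) each still had a log2 ratio of 2.53. That of Zfp985 (5 and 13) was 1.59. With a filter of 1000 genes and a 5% mitochondrial share, 4 were apart, Zfp981 not among them. With a minimum of 50 UMIs, 3 listed genes were apart (Zfp990, Zfp982 and Zfp985). Scaling to the median ratio brought 1 listed gene, Zfp987, within 2-fold, against 0. The share of all genes apart, 1.42%, was 0.941% with a minimum of 50 UMIs and 8.60% with a 2-fold limit, and the count of genes apart in the chromosome 4 stretch, 11, was 7 and 19. Of 90 log2 ratios of listed genes recomputed under these choices, 86 stayed inside the counting interval of the report, 4 moved outside it and 0 of the genes at least 4-fold apart changed sign. Of the other genes, Zfp987 fell below 0 on thinning (8 and 6 UMIs) and, at -0.004, on the median scale. Zfp600 did so without the deep barcodes (0 and 2 UMIs), and Zfp980 (0 and 2) and Zfp989 (0 and 1) on thinning. For Zfp600, Zfp980 and Zfp989, all among the 4 that moved, the sign came from setting the WT sum of 0 to 3. No paired analysis was possible because each genotype had 1 library. Depth limits Zfp600, Zfp979, Zfp980 and Zfp989, whose sums were under 20 UMIs in the report, and counting intervals do not cover differences between mice, pools or libraries.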
